A study of Mus musculus with 18 samples.

Results

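The genes described here encode the machinery that brings proteins into mitochondria and the carriers that move metabolites across the inner mitochondrial membrane. The rule takes every gene whose symbol begins with Timm, Tomm or Slc25a followed by a digit and that had a probe set assigned to 1 gene. This gave 62 genes with 112 probe sets, out of 17097 genes and 45037 probe sets on the array. By role, 40 were carriers, 8 were small subunits of the translocases and 14 were large translocase subunits. A gene was represented by its probe set with the highest mean over all 18 arrays, and it was tested when that mean lay above the 40th percentile of all probe sets, a log2 value of 5.95. This left 51 genes: 31 carriers, 7 small and 13 large subunits. The 11 that were not tested were Timm8a2, Tomm20l, Slc25a2, Slc25a13, Slc25a16, Slc25a24, Slc25a32, Slc25a40, Slc25a45, Slc25a48 and Slc25a53.

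RNA came from cortex plus striatum, extracted as a single tissue, of 3 control mice and 3 mice with the TgCPEB4∆4 transgene, each 6 weeks old. CPEB4 is a protein that binds cytoplasmic polyadenylation elements in mRNAs and alters their poly(A) tails, and the ∆4 form is the one made without a neuronal microexon. Each mouse gave total RNA, a fraction enriched for short tails (released from poly(U)-agarose by 25% formamide) and a fraction enriched for long tails (released by 90% formamide), with 1 array for each. Equal amounts, 5 ng, were amplified over 21 cycles, so a value is the share of a transcript in its preparation. The strain, the promoter of the transgene, the number of transgenic lines and whether controls were littermates are details the sources used here do not give.

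Proteins destined for mitochondria are made in the cytosol and pass the outer membrane through the TOM complex, whose receptors bind them and whose small subunits hold the channel together. Proteins with a cleavable presequence continue through the TIM23 complex, while the many-times membrane-spanning carriers are escorted across the intermembrane space by the small TIM chaperones and inserted by the TIM22 complex. The carriers exchange ADP for ATP, import phosphate, and move amino acids, keto acids, cofactors and metals, and in neurons they link mitochondrial respiration to glutamate metabolism and to calcium.

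Promoters of 4 members are given first, as examples of members that leaned toward either fraction. Timm10 and Timm8b, both small TIM chaperones, had the lowest values in control mice. Slc25a5, an ADP/ATP carrier, had the lowest value of the carriers in control mice, and Slc25a42, the coenzyme A carrier, leaned toward long tails in both genotypes. Each sequence is the 250 bases before the annotated start on the gene's own strand, from RefSeq on GRCm38.p6: Timm10 at chr2:84826771-84827020 (plus strand), Timm8b at chr9:50603651-50603900 (plus strand), Slc25a5 at chrX:36795347-36795596 (plus strand) and Slc25a42 at chr8:70212282-70212531 (minus strand). Capitals mark the letters CCGGAAG or their reverse complement CTTCCGG, a core bound by ETS-family transcription factors, and the letters GGGCGG or CCGCCC of a GC box. The arrays measure RNA and give no reading of these promoters.
Timm10: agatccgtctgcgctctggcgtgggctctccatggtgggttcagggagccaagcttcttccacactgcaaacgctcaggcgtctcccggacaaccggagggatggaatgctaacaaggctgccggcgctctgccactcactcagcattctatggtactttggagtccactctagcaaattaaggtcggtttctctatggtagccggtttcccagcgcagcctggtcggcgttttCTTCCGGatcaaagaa
Timm8b: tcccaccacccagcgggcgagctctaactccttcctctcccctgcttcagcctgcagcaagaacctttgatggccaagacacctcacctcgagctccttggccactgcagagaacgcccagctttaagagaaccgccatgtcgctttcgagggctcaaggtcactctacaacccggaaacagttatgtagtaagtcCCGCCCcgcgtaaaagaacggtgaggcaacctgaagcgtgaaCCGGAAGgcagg
Slc25a5: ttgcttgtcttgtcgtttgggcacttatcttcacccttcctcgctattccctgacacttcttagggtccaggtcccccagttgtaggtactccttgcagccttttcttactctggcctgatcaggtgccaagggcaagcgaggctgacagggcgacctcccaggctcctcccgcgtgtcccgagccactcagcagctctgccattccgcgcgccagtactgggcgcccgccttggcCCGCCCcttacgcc
Slc25a42: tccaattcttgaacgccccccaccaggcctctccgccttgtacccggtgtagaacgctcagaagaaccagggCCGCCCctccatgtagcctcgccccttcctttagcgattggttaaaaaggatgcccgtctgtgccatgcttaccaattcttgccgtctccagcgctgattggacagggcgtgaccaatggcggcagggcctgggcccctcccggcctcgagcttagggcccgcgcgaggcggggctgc

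The ETS letters stand at position -16 from the start in Timm10 and at -12 in Timm8b, and are not in the other windows. Of the 62 members, 50 matched an entry in the promoter table. Both strands were searched in all of them, with overlapping matches of different motifs allowed. Tested and untested members are counted alike, so the 7 small subunits and 31 carriers here are not the tested 7 and 31. Timm8a2, which was not tested, is counted and has the ETS letters, while Tomm7 had no entry. Untested carriers such as Slc25a13 are counted too. The ETS letters were in 3 of 7 small subunit promoters (42.9%), 5 of 12 large subunit promoters (41.7%) and 5 of 31 carrier promoters (16.1%), against 7.83% of the 27025 genes and 6.91% of the 32851 promoters in the table, all of the same length. The GC box letters were in 3 of 7 small subunit promoters (42.9%), in 5 of 12 large subunit promoters (41.7%) and in 23 of 31 carrier promoters (74.2%), against 35.4% of all genes and 32.7% of all promoters. The letters CCAAT or ATTGG were in 1 of 7 small subunit promoters (14.3%), 5 of 12 large subunit promoters (41.7%) and 16 of 31 carrier promoters (51.6%), against 37.5% of all genes and 33.8% of all promoters. These are counts of letters in short windows and say nothing of binding.

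Tail length was described by the tail ratio, the log2 value in the long-tail fraction minus the log2 value in the short-tail fraction of the same mouse, where 1 log2 unit is a factor of 2. A value below 0 means that the transcript took a larger share of the short-tail fraction. In control mice, 34 of the 51 members had a tail ratio below 0 and 4 had one above 0 at an adjusted p under 0.05 (limma, Benjamini-Hochberg over 27022 probe sets), and 13 passed in neither direction. Over all 11974 genes tested, 39.9% passed toward short tails and 20.5% toward long tails. The median tail ratio was -0.66 over the members and -0.18 over all genes. By role, 6 of 7 small subunits, 12 of 13 large subunits and 16 of 31 carriers passed toward short tails, and all 4 that passed toward long tails were carriers. The medians were -1.68 for the small subunits, -1.08 for the large subunits and -0.50 for the carriers. In the following, all 3 control mice and then all 3 transgenic mice are given in order of their number. Equal numbers were not taken as pairs in the main setting.

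**Figure D1:**
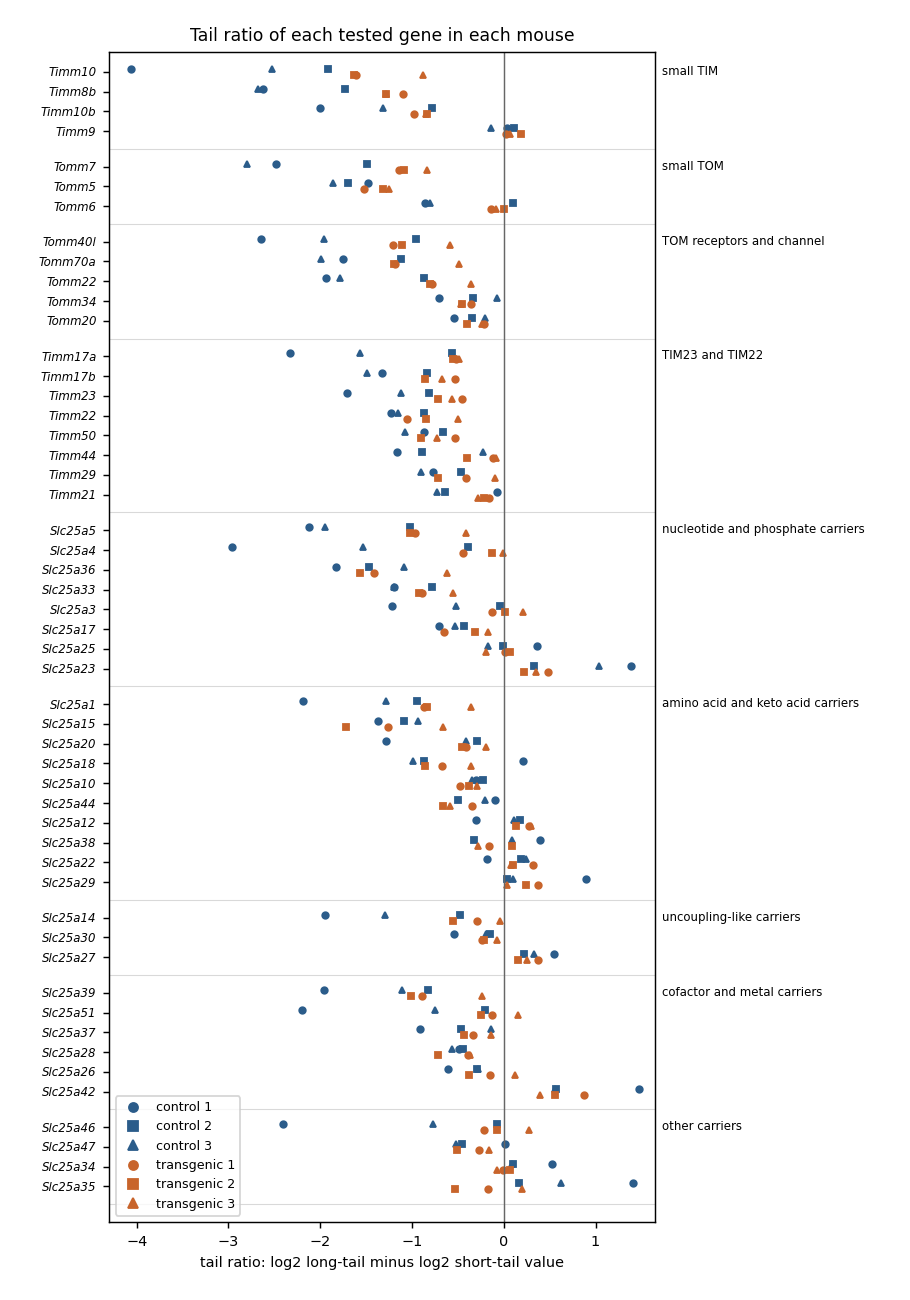
Tail ratio (x axis, log2 long-tail minus log2 short-tail value) of each of the 51 tested genes (y axis), grouped by role, with 1 point per mouse, blue for the 3 control and orange for the 3 transgenic mice. Points left of the line at 0 lie toward short tails; control mouse 1 reaches -4.06 for Timm10, while the 4 carriers with called long tails in control mice (Slc25a23, Slc25a42, Slc25a35 and Slc25a27) lie right of 0 in every control mouse.

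The small TIM proteins form hexameric chaperones in the intermembrane space. Timm10, a core subunit of the chaperone made with Timm9, had tail ratios of -4.06, -1.91 and -2.52 in control mice, a mean of -2.83 ± 1.11 (SD, n = 3; adjusted p = 0.000696). In the transgenic mice they were -1.61, -1.63 and -0.88, a mean of -1.37 ± 0.43 (SD, n = 3; adjusted p = 0.0230). All 6 values lie below 0, and every transgenic value lies above every control value. Timm8b, a subunit of a second kind of small TIM chaperone, had tail ratios of -2.63, -1.73 and -2.67 in control mice against -1.10, -1.28 and -1.29 in transgenic mice. The means were -2.34 ± 0.53 (SD, n = 3; adjusted p = 0.00045) and -1.22 ± 0.11 (SD, n = 3; adjusted p = 0.00541), and again the groups did not overlap. Timm10b, which docks the chaperone to the TIM22 complex, had -2.0, -0.78 and -1.31 in control mice against -0.97, -0.84 and -0.85 in transgenic mice, with overlapping groups and means of -1.36 and -0.89. For Timm10b the SD was 0.61 in control and 0.075 in transgenic mice.

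Timm9, the partner of Timm10, was the exception among the small subunits. Its tail ratios were 0.03, 0.11 and -0.14 in control mice and 0.02, 0.18 and 0.07 in transgenic mice, so they lie on both sides of 0. The control mean of 0.00 was not called (adjusted p = 0.985). Its probe set was dim, between 5.97 and 6.45 on all 18 arrays. Against the brightest nonspecific control it was higher on 0 of 6 total RNA arrays, on all 6 short-tail arrays, and on 2 of 3 long-tail arrays of each genotype. The gene also overlaps Tomm20l in the RefSeq annotation. Whether these values follow Timm9 mRNA at all was not tested.

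The small TOM proteins stabilise the outer membrane channel. Tomm7 had tail ratios of -2.48, -1.49 and -2.80 in control mice, a mean of -2.26 ± 0.69 (SD, n = 3; adjusted p = 0.000481). In transgenic mice they were -1.15, -1.09 and -0.84, a mean of -1.03 ± 0.16 (SD, n = 3; adjusted p = 0.0148). Every transgenic value lies above every control value. Tomm5 had -1.48, -1.69 and -1.86 in control mice against -1.52, -1.31 and -1.25 in transgenic mice. Its means were -1.68 ± 0.19 and -1.36 ± 0.14 (SD, n = 3 each), the groups overlapped, and it had the lowest adjusted p of all members in transgenic mice, 0.00279. Tomm6 lay nearest 0 of the called small subunits, with -0.86, 0.10 and -0.81 in control mice against -0.14, 0.00 and -0.08 in transgenic mice. Its control call (adjusted p = 0.0399) was lost without control mouse 1 (mean -0.35, adjusted p = 0.148) and without control mouse 3 (mean -0.38, adjusted p = 0.204).

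**Figure D2:**
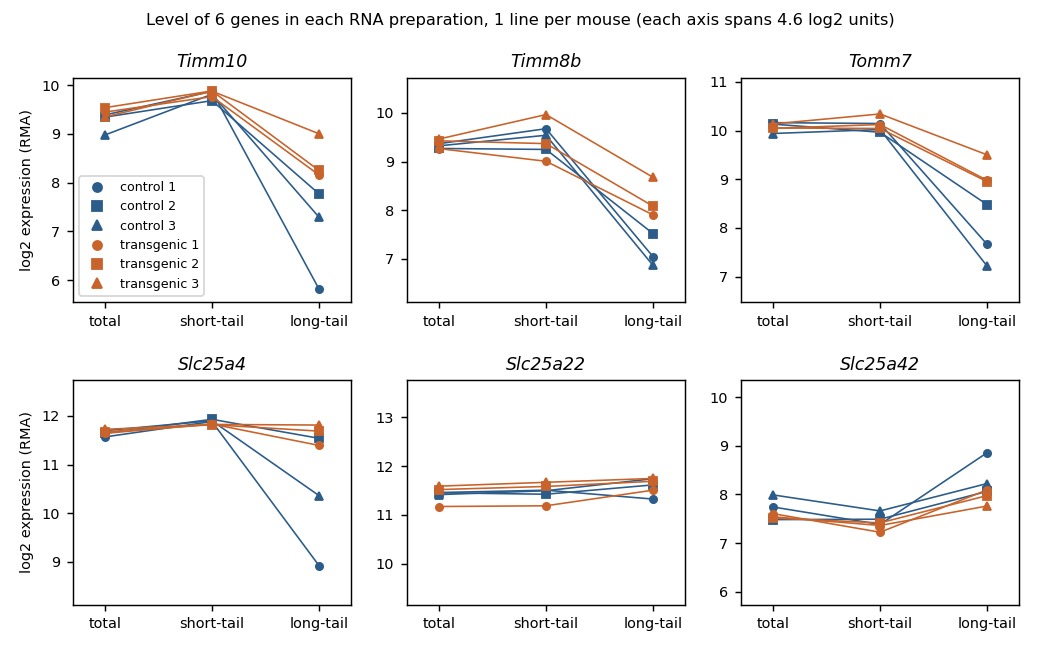
Log2 expression (y axis, RMA values) of 6 genes in total RNA, the short-tail and the long-tail fraction (x axis), 1 line per mouse, blue for control and orange for transgenic mice. Timm10, Timm8b and Tomm7 drop between the short-tail and the long-tail fraction in all 6 mice, Slc25a4 drops mainly in control mice 1 and 3, Slc25a22 stays nearly level and Slc25a42 is higher in the long-tail fraction in all 6 mice.

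Among the called small subunits, the low values lay in the long-tail fraction. The log2 level of Timm10 was 9.39, 9.34 and 8.98 in total RNA of control mice, 9.87, 9.68 and 9.81 in the short-tail fraction and 5.81, 7.77 and 7.29 in the long-tail fraction. In transgenic mice it was 9.45, 9.54 and 9.35 in total RNA, 9.77, 9.88 and 9.88 in the short-tail fraction and 8.16, 8.25 and 9.0 in the long-tail fraction. The genotypes overlapped in the short-tail fraction and in total RNA, and did not overlap in the long-tail fraction. The value of 5.81 in control mouse 1 was below the brightest nonspecific control on that array, 7.30, so that mouse gives only a bound, as it does for Timm8b at 7.05. Tomm7 showed the same order: its long-tail level was 7.66, 8.48 and 7.22 in control mice against 8.98, 8.95 and 9.50 in transgenic mice, while its short-tail level ran from 9.96 to 10.34 over all 6 mice.

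Of the 5 tested genes grouped as receptors, channel homologue and cochaperone of the outer membrane, 4 were called toward short tails in control mice. The median was -1.53. The channel protein Tomm40 itself was not among the members. Tomm40l, a homologue of the channel protein Tomm40, had tail ratios of -2.64, -0.96 and -1.96 in control mice against -1.21, -1.11 and -0.59 in transgenic mice. Tomm70a, the receptor for carriers, had -1.75, -1.12 and -1.99 in control mice against -1.19, -1.20 and -0.49 in transgenic mice. Both are below 0 in all 6 mice and their groups overlap. Tomm22, the central receptor of the complex, had -1.94, -0.86 and -1.78 in control mice against -0.79, -0.80 and -0.36 in transgenic mice. Its control mean was -1.53 ± 0.58 (SD, n = 3; adjusted p = 0.00092), and its groups did not overlap. Tomm34, a cytosolic cochaperone of import, did not pass (mean -0.37, adjusted p = 0.0518), though all 6 of its values were below 0. It passed without control mouse 3 (mean -0.52, adjusted p = 0.0387). Tomm20, the fourth called gene, had -0.54, -0.34 and -0.20 in control mice, and its call was lost with any control mouse left out (adjusted p between 0.0550 and 0.132).

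All 8 tested genes of the TIM23 and TIM22 complexes passed toward short tails in control mice, with means between -1.49 and -0.48 and a median of -0.98. Timm17a, which lines the TIM23 channel, had tail ratios of -2.33, -0.57 and -1.57 in control mice against -0.52, -0.56 and -0.49 in transgenic mice. Control mouse 2 thus lay beside the transgenic mice. Timm23, the channel's core subunit, had -1.71, -0.81 and -1.12 in control mice against -0.45, -0.72 and -0.56 in transgenic mice, with no overlap. Timm17b, the second isoform of Timm17, had -1.32, -0.83 and -1.49 in control mice against -0.54, -0.85 and -0.67 in transgenic mice. The motor anchor Timm44 had a control mean of -0.76 and the TIM22 subunit Timm29 one of -0.71. Timm21 had the smallest of the group, -0.48, and its call was lost without control mouse 2 (adjusted p = 0.0881) and without control mouse 3 (adjusted p = 0.144). Under renewed quantile normalization Timm44 (-0.37, adjusted p = 0.0822) and Timm29 (-0.29, adjusted p = 0.111) were not called.

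Control means of the carriers ran from -1.70 to 0.92, and they are described by cargo. Among the 8 nucleotide and phosphate carriers, 6 passed toward short tails and 1 toward long tails. Slc25a5 had tail ratios of -2.13, -1.03 and -1.95 in control mice against -0.96, -1.02 and -0.41 in transgenic mice, with a control mean of -1.70 ± 0.59 (SD, n = 3; adjusted p = 0.000789) and no overlap. Slc25a4, the ADP/ATP carrier typical of excitable tissue, had -2.96, -0.39 and -1.54 in control mice against -0.44, -0.13 and -0.01 in transgenic mice. Its control SD of 1.29 was the widest of the named carriers, and the control mean went from -1.63 with all mice to -0.96 without control mouse 1 and to -0.86 when all its probe sets were averaged, both of which passed. The pyrimidine nucleotide carriers Slc25a36 and Slc25a33 were below 0 in all 6 mice, with control means of -1.46 and -1.06 and transgenic means of -1.20 and -0.79. The phosphate carrier Slc25a3 had -1.22, -0.04 and -0.52 in control mice against -0.12, 0.01 and 0.21 in transgenic mice, and its control call was lost without control mouse 1 (mean -0.28, adjusted p = 0.169) and without control mouse 3 (adjusted p = 0.0921).

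The calcium-sensitive ATP-Mg/phosphate carrier Slc25a23 lay on the other side of 0. Its tail ratios were 1.39, 0.33 and 1.04 in control mice, a mean of 0.92 ± 0.54 (SD, n = 3; adjusted p = 0.00444), and 0.49, 0.22 and 0.35 in transgenic mice, a mean of 0.35 that did not pass. All 6 values are above 0. Its relative Slc25a25 had a control mean of 0.06 and did not pass. Slc25a42 had tail ratios of 1.47, 0.57 and 0.56 in control mice, a mean of 0.87 ± 0.52 (SD, n = 3; adjusted p = 0.00617), and 0.87, 0.56 and 0.40 in transgenic mice, a mean of 0.61 ± 0.24 (SD, n = 3; adjusted p = 0.0471). It was the 1 member called toward long tails in transgenic mice. That call was lost without any 1 of the transgenic mice or control mouse 3, with no filter or a stricter one, under renewed quantile normalization, with median centring and with the floor (adjusted p between 0.0544 and 0.259 in these settings). Its second probe set had a control mean of 0.75 (adjusted p = 0.0045) and a transgenic mean of 0.44 that did not pass (adjusted p = 0.0640). The remaining long-tail calls were Slc25a35, with 1.41, 0.17 and 0.62 in control mice against -0.17, -0.53 and 0.20 in transgenic mice, and the neuronal uncoupling-like carrier Slc25a27, with 0.55, 0.22 and 0.33 against 0.38, 0.16 and 0.25. Both control calls were lost without control mouse 1 or without control mouse 3 (adjusted p between 0.0694 and 0.130).

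Amino acid and keto acid carriers were mostly close to 0, and 3 of 10 passed toward short tails, against 39.9% of all genes. These 3 were the citrate carrier Slc25a1, the ornithine carrier Slc25a15 and the carnitine carrier Slc25a20. Slc25a1 had tail ratios of -2.19, -0.94 and -1.28 in control mice against -0.87, -0.84 and -0.36 in transgenic mice, with no overlap. Slc25a20 had -1.28, -0.29 and -0.42 in control mice, and its call was lost without control mouse 1 (adjusted p = 0.0643). Slc25a15 (control mean -1.13) was above the brightest nonspecific control on only 1 of 3 control arrays of the long-tail fraction. With values raised to that control's level its mean was -0.38 and was not called (adjusted p = 0.233). The carriers that tie respiration to glutamate in neurons lay near 0 in their representing probe sets. Slc25a12, the aspartate-glutamate carrier of neurons, had -0.31, 0.18 and 0.11 in control mice against 0.27, 0.13 and 0.29 in transgenic mice. Slc25a22, a glutamate carrier, had -0.18, 0.19 and 0.25 in control mice against 0.32, 0.11 and 0.08 in transgenic mice, at long-tail levels of 11.33, 11.62 and 11.74 in control mice. In these probe sets of both genes only control mouse 1 was below 0. Another tested probe set of Slc25a12 had means of -0.44 in control and -0.32 in transgenic mice, neither of them called.

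Of the 6 cofactor and metal carriers, 5 passed toward short tails and Slc25a42 toward long tails. Slc25a39, a glutathione carrier, had -1.96, -0.83 and -1.11 in control mice against -0.89, -1.01 and -0.24 in transgenic mice. The mitoferrins Slc25a28 and Slc25a37, which import iron, had control means of -0.50 and -0.51, and neither call held with each control mouse left out. Slc25a28 lost it without control mouse 3 (adjusted p = 0.0528), and Slc25a37 without control mouse 1 (adjusted p = 0.118) and without control mouse 2 (adjusted p = 0.0503). Slc25a26, the carrier of the methyl donor S-adenosylmethionine (mean -0.39), lost its call with any control mouse left out. Slc25a51, the NAD carrier, had -2.20, -0.21 and -0.75 in control mice against -0.13, -0.24 and 0.15 in transgenic mice, with control mouse 2 among the transgenic values. Slc25a14, another uncoupling-like carrier of neurons, had -1.95, -0.47 and -1.29 in control mice against -0.30, -0.55 and -0.05 in transgenic mice. Slc25a46, an outer membrane protein of mitochondrial dynamics, had -2.40, -0.07 and -0.77 in control mice against -0.22, -0.07 and 0.27 in transgenic mice, and its call was lost without control mouse 1 (mean -0.42, adjusted p = 0.0831) and without control mouse 3 (adjusted p = 0.0636). In all, 11 of the 38 control calls were lost when 1 control mouse was left out, 8 of them carriers.

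Small subunits and carriers were set against each other within each mouse, as the median over the 7 small subunits minus the median over the 31 carriers. For the tail ratio this difference was -1.46, -1.20 and -1.44 in control mice, a mean of -1.36 ± 0.15 (SD, n = 3). In transgenic mice it was -0.83, -0.71 and -0.71, a mean of -0.75 ± 0.07 (SD, n = 3). The small subunits lay lower in all 6 mice, by more in each control than in any transgenic mouse. The same contrast between the short-tail fraction and total RNA was -0.01, -0.28 and -0.09 in control mice against -0.14, -0.14 and 0.16 in transgenic mice, around 0. Between the long-tail fraction and total RNA it was -1.30, -1.30 and -1.31 in control mice, nearly the same value in each, and -1.01, -0.85 and -0.54 in transgenic mice. The contrast therefore lay in the long-tail fraction. The groups also differed in level. Averaged over control mice, the median level was 9.21 for small subunits and 8.28 for carriers in total RNA. It was 9.49 and 8.54 in the short-tail fraction, and 7.29 and 8.10 in the long-tail fraction. In transgenic mice these pairs were 9.35 and 8.42, 9.42 and 8.74, and 8.23 and 8.29. The part of the level in the contrast was not tested. No p is given, since the members and their grouping were chosen with results of these data known.

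**Figure D3:**
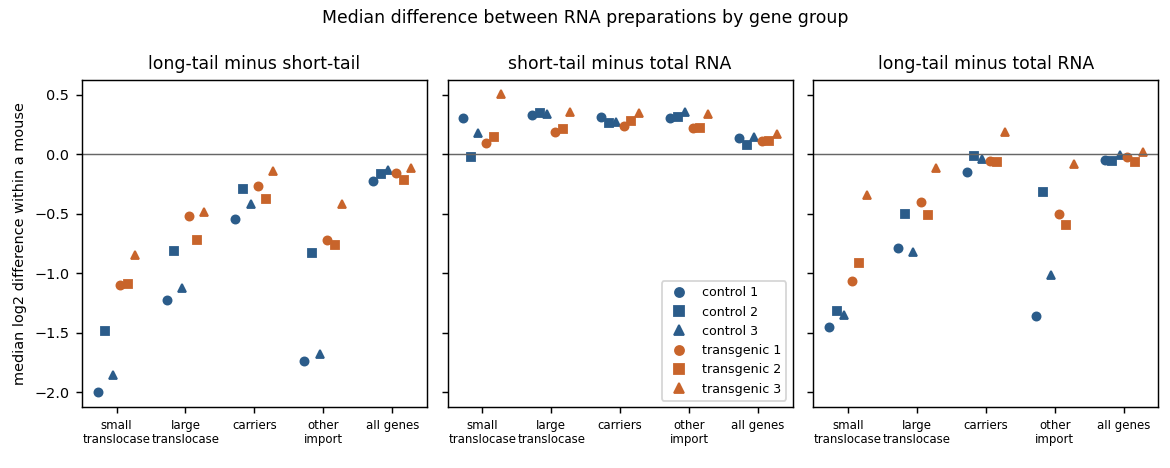
Median log2 difference between RNA preparations of the same mouse (y axis) over the small translocase subunits, large translocase subunits, carriers, other import genes and all genes tested (x axis), 1 point per mouse, blue for control and orange for transgenic mice. The small subunits lie between -2.0 and -0.85 for long-tail minus short-tail and the carriers between -0.54 and -0.14; in short-tail minus total RNA the small subunits, large subunits and carriers lie between -0.02 and 0.50.

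The spread of tail ratios over all probe sets differed between mice. The SD over the 27022 probe sets was 1.19, 0.593 and 0.859 in control mice 1, 2 and 3 and 0.614, 0.621 and 0.388 in the transgenic mice. The small subunit median was -2.0, -1.49 and -1.86 in control mice against -1.10, -1.09 and -0.85 in transgenic mice. The median over all genes ran from -0.23 to -0.11 over the 6 mice. When each mouse's tail ratios were rescaled to the same SD, a setting chosen after seeing the data, the small-minus-carrier difference became -1.17 in control and -1.02 in transgenic mice. The small subunits lay below the carriers in both genotypes, and the gap between genotypes was smaller. What causes the gap between genotypes was not tested.

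In transgenic mice 20 of the 51 members passed toward short tails and 1 toward long tails, against 20.5% and 6.5% of all genes, and the member median was -0.38 against -0.17. By role, 5 of 7 small subunits (median -1.03), 7 of 13 large subunits (median -0.58) and 8 of 31 carriers passed toward short tails. The 5 small subunits were Timm8b, Timm10, Timm10b, Tomm5 and Tomm7. The carriers Slc25a15, at -1.26, -1.72 and -0.66, and Slc25a36, at -1.41, -1.57 and -0.62, lay as low as these. These calls depended on transgenic mice 1 and 2. Without transgenic mouse 1, 0 members and 0.0% of all genes passed (limma), with 16 members and 23.0% of all genes at an unadjusted p under 0.05. Without transgenic mouse 2 it was again 0 members and 0.0%, with 17 members and 20.5% at an unadjusted p under 0.05. Without transgenic mouse 3, 13 members passed, against 18.3% of all genes. The member median was -0.33 without transgenic mouse 1, -0.31 without mouse 2 and -0.43 without mouse 3. Renewed quantile normalization left 7 member calls against 13.7% of all genes, and rescaling to the same SD raised them to 34 against 58.2%.

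Transgenic and control mice were then compared directly. In total RNA 0 of 51 members passed (limma, lowest adjusted p = 0.423), and 0.0% of all genes did. At an unadjusted p under 0.05, 3 members were higher and 1 lower in transgenic mice, against 8.19% and 3.1% of all genes. In 5 members every transgenic value lay above every control value and in 1 below, against 13.2% and 6.63%. The largest difference was that of Slc25a18, a glutamate carrier found mainly in astrocytes, whose total RNA level was 7.63, 7.90 and 7.89 in control mice against 9.14, 8.52 and 8.45 in transgenic mice. Every transgenic value lay above every control value, and the difference was 0.89 ± 0.19 (log2, SE; limma unadjusted p = 0.0011, adjusted p = 0.423). All 10 astrocyte markers were higher on average in transgenic mice too, with a median difference of 0.36, and the median level of the list was 9.64, 8.84 and 8.45 in transgenic mice against 8.28, 8.12 and 8.23 in control mice. Of the 10 markers, 8 or 9 lay above the brightest nonspecific control on each total RNA array. Whether more astrocytes or more RNA per astrocyte lies behind such a difference cannot be told apart in these bulk samples, and their part in the Slc25a18 value was not tested. Slc25a27 was lower, at 7.68, 7.73 and 7.73 in control mice against 7.17, 7.59 and 7.46 in transgenic mice, a difference of -0.30 ± 0.13 (log2, SE; unadjusted p = 0.0408).

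In the short-tail fraction, too, 0 members passed (limma, lowest adjusted p = 0.196) and 0.0% of all genes, with 4 members higher and 1 lower at an unadjusted p under 0.05, against 11.3% and 5.4%. The groups did not overlap in 9 members higher and 4 lower in transgenic mice, against 16.1% and 9.2% of all genes. The median difference was 0.10 for the small subunits, 0.01 for the large subunits, 0.09 for the carriers and 0.03 for all genes. The tail ratio of Slc25a18 was 0.21, -0.87 and -0.98 in control mice, and it passed toward short tails without control mouse 1 (mean -0.93, adjusted p = 0.000915). Its short-tail level was 8.56, 8.42 and 8.51 in control mice against 9.53, 8.99 and 8.80 in transgenic mice.

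In the long-tail fraction the medians moved apart, though 0 members passed (limma, lowest adjusted p = 0.278) and 0.0% of all genes. At an unadjusted p under 0.05, 15 members were higher in transgenic mice and 0 lower, against 15.4% higher and 2.68% lower of all genes. The median difference was 0.83 for the small subunits, 0.43 for the large subunits and 0.25 for the carriers, against 0.08 for all genes. Marker lists of cell types differed in the same comparison. The median difference was 0.57 over the astrocyte markers (10 of 10 above 0, 6 at an unadjusted p under 0.05). Over the microglia markers it was 0.49 (5 of 5 above 0, 1 at an unadjusted p under 0.05). It was 0.30 over the striatal projection neuron markers (2 of 3 above 0) and 0.22 over the endothelial markers (3 of 4). Oligodendrocyte markers had 0.07 (2 of 4 above 0) and the neuronal markers -0.16 (1 of 5). The median level of the astrocyte markers in this fraction ran from 7.71 to 8.57 in control and from 8.69 to 9.75 in transgenic mice, and that of the microglia markers from 7.50 to 9.06 and from 8.94 to 9.17. Their part in the members' differences was not tested. All 7 small and all 13 large subunits had a mean difference above 0, as did 22 of 31 carriers. In 15 members every transgenic value lay above every control value, and in 1 below, against 18.2% and 7.64% of all genes. Timm8b, for example, had long-tail levels of 7.05, 7.52 and 6.87 in control mice against 7.91, 8.08 and 8.68 in transgenic mice, a difference of 1.08 ± 0.26 (log2, SE; adjusted p = 0.278). Timm17b had 8.22, 8.70 and 8.16 in control mice against 9.16, 9.06 and 9.23 in transgenic mice, a difference of 0.79 ± 0.20. Slc25a5 had 8.09, 9.15 and 8.28 in control against 9.27, 9.34 and 9.80 in transgenic mice, a difference of 0.96 ± 0.30. In each of these genes the groups did not overlap, and control mouse 2 was the control nearest to the transgenic mice.

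The genotype difference of the tail ratio had 0 called members (limma, lowest adjusted p = 0.371) and 0.0% called genes. At an unadjusted p under 0.05, 12 members were higher and 1 lower in transgenic mice, against 10.9% and 3.25% of all genes. The smallest p-values were those of Timm8b (difference 1.12 ± 0.27, SE), Tomm7 (1.23 ± 0.32), Tomm22 (0.88 ± 0.30), Timm10 (1.46 ± 0.50) and Slc25a5 (0.90 ± 0.32), with unadjusted p-values from 0.00296 to 0.0205. The Timm10 difference was 0.85 without control mouse 1 and 0.97 with values raised to the level of the nonspecific controls, since the long-tail value of that mouse lay below them. With the same floor Tomm22 differed by 0.62. Over the alternative settings that kept all mice, rescaling to the same SD included, the lowest difference of Timm8b was 0.25. That of Tomm7 was 0.49, of Tomm22 0.40, of Timm10 0.49 and of Slc25a5 0.36. The 1 lower was Slc25a35, at -0.90 ± 0.33. In 8 members, Timm8b, Timm10, Tomm7, Tomm22, Timm17a, Timm23, Slc25a1 and Slc25a5, every transgenic value lay above every control value. In Slc25a34 every one lay below, and the shares over all genes were 11.9% and 7.36%. The median difference was 0.27 over the members and 0.02 over all genes, and 0.07 over the members after rescaling to the same SD. This comparison and that of the long-tail fraction share the same long-tail arrays, so they are not separate evidence.

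Leaving out control mouse 2 changed both of the last results. Without it, 10 members were called higher in the long-tail fraction of transgenic mice, against 9.5% of all genes higher and 0.71% lower. They were Timm8b, Timm10, Tomm6, Tomm7, Tomm22, Timm17a, Timm17b, Slc25a4, Slc25a5 and Slc25a14, with adjusted p-values from 0.0148 to 0.0416. For the tail ratio 10 were called higher and 2 lower, Slc25a23 and Slc25a35, against 9.18% and 1.25% of all genes. Tomm7 then differed by 1.62 and Timm8b by 1.43 (adjusted p = 0.0077 and 0.00832). Leaving out any other mouse gave 0 called members in both comparisons.

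Many members had more than 1 probe set, and these did not always move together. Of 87 tested member probe sets, 57 were called toward short tails and 8 toward long tails in control mice, against 35.4% and 27.6% of all probe sets. In transgenic mice it was 33 and 1, against 19.1% and 12.7%. Of 25 genes with more than 1 tested probe set, 11 had all of them called toward short tails, against 22.9% of all 4622 such genes, and 2 had calls in opposite directions, as did 464 of the 4622. The 4 probe sets of Slc25a5 had control means of -1.70, -2.12, -2.25 and -1.75, and all were called. The 4 probe sets of Tomm20, a receptor for presequences, were called as well but lay far apart, at -0.36, -2.83, -0.52 and -1.62. The brightest of them, which represents the gene here, was the nearest to 0. Of the 4 probe sets of Tomm7, 3 were called, at -2.26, -2.19 and -1.98, and the fourth, of a type shared by several transcripts, lay at 0.20. Timm22, the channel of the carrier translocase, had 1 probe set at -1.08 (adjusted p = 0.000888) and 1 at 0.44 (adjusted p = 0.0132). Slc25a51 had probe sets at -1.05, -0.66 and 0.43, all called. Which part of a transcript each probe set reads is not analysed here.

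**Figure D4:**
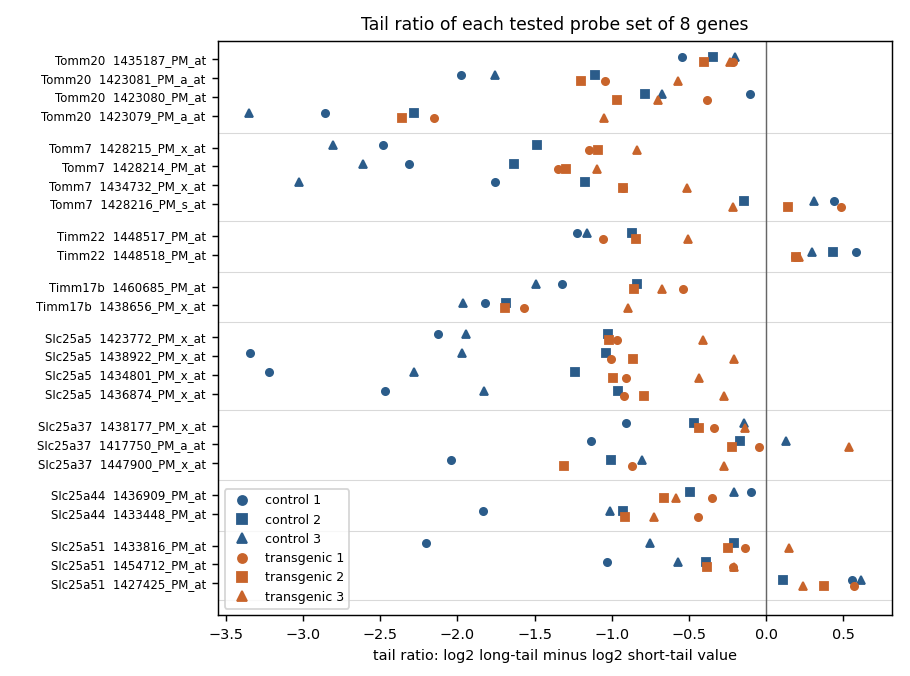
Tail ratio (x axis, log2 long-tail minus log2 short-tail value) of each tested probe set (y axis, gene and probe set name) of 8 genes, 1 point per mouse, blue for control and orange for transgenic mice. The probe sets of Slc25a5 lie together, those of Tomm20 range from -3.35 to -0.10, and Timm22 and Slc25a51 each have a probe set on either side of 0.

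The genes named here can be read only as far as their probe sets identify them. Of the 51 representing probe sets, 5 had names ending in x, which marks probes that may also match other sequences: those of Tomm7, Slc25a5, Slc25a29, Slc25a37 and Slc25a39. Another 2, of Slc25a20 and Slc25a47, were of the type shared by several transcripts. In the RefSeq annotation 18 of the 62 members overlap another coding or long noncoding gene, and 3 further probe sets that name a member together with another gene (Dnhd1 with Timm10b, Nkapd1 with Timm8b) were left out. Those naming Nkapd1 and Timm8b had mean tail ratios of -0.57 and -0.31 in control mice and -0.73 and -0.09 in transgenic mice. That naming Dnhd1 and Timm10b had -0.73 in control and -0.70 in transgenic mice. Which gene these values follow was not tested. On total RNA arrays 40 to 43 of the 51 tested members lay above the brightest of 23 nonspecific controls, and on short-tail arrays all 51 did. On long-tail arrays it was 36 in control mouse 1 and 47 to 51 in the other 5 mice. As a check of the tissue, all 5 neuronal markers lay above those controls on all 18 arrays. Of 3 marker genes of other tissues, 2 had a probe set, and 0 or 1 of them did on total RNA arrays. Both lay above the controls on each short-tail array of control mice, so this cut alone does not show expression. Both were also called toward long tails in control mice, at 0.68 and 0.73.

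Other genes of mitochondrial import, which the naming rule does not cover, were described for comparison: chaperones, motor subunits, peptidases and outer membrane assembly factors. All 19 passed toward short tails in control mice, with a median of -1.40, against 39.9% of all genes. In transgenic mice 11 of 19 did, with a median of -0.58, against 20.5% of all genes. Dnajc15, a motor cochaperone, had the lowest control mean, -2.35, and Pmpca, a subunit of the presequence peptidase, the highest, -0.42. In the long-tail fraction their median difference between genotypes was 0.72, with 0 called. At an unadjusted p under 0.05, 10 of 19 were higher in transgenic mice, against 15.4% of all genes. For comparison, the control medians were -1.68 for the small subunits, -1.08 for the large subunits and -0.50 for the carriers, and the differences between lists were not tested.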

How the data were processed

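RNA of 6 mice was measured on 18 single-colour Affymetrix arrays. The authors deposited log2 values for each probe set, made with RMA according to the submitters' processing notes, with no version given. RMA normalizes the arrays' distributions, so a shift shared by most transcripts cannot be seen. The deposited distributions were still not the same. The SD over all probe sets was 1.70 to 1.91 on long-tail arrays and 1.94 to 2.00 on short-tail arrays. The design text and the probe annotation name different array designs, and the annotation was used. Groups were taken from the labelled genotype and fraction, and arrays of a mouse were joined through its labelled number. The labels do not say whether cages or litters were shared. R 4.3.3 with limma 3.58.1 gave two-sided tests with Benjamini-Hochberg adjustment over 27022 of 45037 probe sets (mean above the 40th percentile). Total RNA, each fraction and the tail ratio were compared between genotypes, and each genotype's mean tail ratio was tested against 0 with 1 estimate of the spread for both genotypes. The script was tested on data simulated with noise independent between arrays and 1 SD per probe set for all groups. Of probe sets changed by 1 log2 unit, 52% were recovered in the long-tail comparison and 9% in the genotype difference of the tail ratio. Of those changed by 2, it was 98% and 79%. In the measured arrays, short-tail and long-tail deviations of a mouse from the group mean correlated at 0.72, 0.33 and 0.43 in transgenic mice. In control mice it was -0.07, 0.16 and -0.02. The simulated shares therefore need not hold for the measured comparisons.

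The members, role lists and tests were chosen with earlier results of these data known. Genes named are all small subunits and the 10 listed brain carriers except Slc25a11, which was not among the members. Also named are the 5 lowest and highest called tail ratios and the 5 smallest p-values of each comparison. Up to 4 members per role and genes with opposed probe sets were added. Further members, such as Slc25a20, Slc25a25, Slc25a26, Timm21 and the import genes named, were chosen after their values were seen. Alternatives were other filters, renewed quantile normalization, median centring, a floor at nonspecific controls, averaging a gene's probe sets, leaving out each mouse, separate fits, a replicate block and, added later, rescaled tail ratios. Arrays carry no read depth; the number of mice limits the precision.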

Additional observations from a re-analysis of the deposited data

How the results depend on the processing

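Across the alternatives, no called value of a named gene changed sign. Of 1399 recomputed values of named genes, 124 lost a call, 55 gained one, and 25 changed sign with no call on either side. Control tail ratio calls numbered 38 in the main setting, where 39.9% of all genes passed toward short and 20.5% toward long tails. They numbered 30 to 34 when 1 mouse was left out and 27 with the control mice fitted alone. Shares over all genes were not counted for these control settings, so whether the members' drop differs from that of all genes is not known. In transgenic mice, 21 calls became 7 under renewed quantile normalization, 0 to 28 when 1 mouse was left out (0 without transgenic mouse 1, 0 without transgenic mouse 2, 13 without transgenic mouse 3) and 34 after rescaling, which was chosen after seeing the data. Without control mouse 2 the genotype comparison gained 10 calls in the long-tail fraction and 12 in the tail ratio; over all mice left out in turn these counts ran from 0 to 10 and from 0 to 12. The small-minus-carrier difference in control mice was -1.36, and -1.19 without a filter and -1.50 with a filter at the 60th percentile. It was -1.08 with the mean of all probe sets and -1.17 after rescaling. In transgenic mice it was -0.75, and -0.68 under renewed quantile normalization and -1.02 after rescaling. Beyond the fewer samples or genes these settings use, the cause was not tested.

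Control and transgenic mice share numbers 1 to 3, and the labels do not say whether equal numbers mark pairs. Deviations of same-numbered mice correlated at 0.36, -0.31 and 0.27 for the tail ratio. With 3 mice per genotype these values cannot decide it. With the number as a replicate block, 0 members were called in total RNA, the short-tail fraction, the long-tail fraction and the tail ratio difference, with lowest adjusted p-values of 0.293, 0.183, 0.233 and 0.245.

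Signal over background limits the dim members: Timm9, Slc25a15 and Slc25a47 were below the brightest nonspecific control on some long-tail arrays of each genotype, and 36 of the 51 tested members were above it on the long-tail array of control mouse 1.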
